A study of Sus scrofa with 20 samples.

Results

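A group of 8 genes of the circadian clock and its output was followed in pig kidney after neurologic death (ND): the repressors PER1, CRY2 and BHLHE40, the activators ARNTL and RORA, the D-box factors NFIL3 and DBP, and the output gene USP2. They were taken as every probe set whose platform annotation gives 1 of these symbols, which found 10 probe sets for the 8 genes among 23999 probe sets and 6765 named genes. The 20 pigs had been randomized, and each gave 1 kidney RNA sample that was hybridised to its own Affymetrix array for pig, in 1 colour. The 10 control animals had a burr hole, catheters and anaesthesia; the 10 ND animals had these too, and a subdural balloon catheter was then filled to bring about ND. All animals stayed on a ventilator for 6 h, with 0.9% saline boluses of 2 cc/kg given to hold mean arterial pressure above 35 mmHg, before kidney tissue was snap frozen. The strain, age and sex of the animals and the clock time of sampling are not given in the sources used here. Animals are named by group and number, as in ND_47 or Control_199.

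The molecular clock is a feedback loop of transcription and translation that runs in most cells, the kidney included. ARNTL (also called BMAL1) pairs with CLOCK, binds E-box elements and drives the PER and CRY genes, whose proteins return to the nucleus and repress that pair. RORA activates the ARNTL gene, while DBP (an activator) and NFIL3 (a repressor) compete for D-box elements. PER1 is in addition induced directly by the glucocorticoid receptor. In the kidney the clock is known for daily rhythms of sodium and water excretion, and PER1 for its effect on the epithelial sodium channel.

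In ND kidneys 3 of the 8 genes fell and none rose: PER1 and USP2 by several fold, and ARNTL by a smaller amount. CRY2, NFIL3, RORA, BHLHE40 and DBP did not pass the test. The test was limma on log2 signals, with a Benjamini-Hochberg adjusted p under 0.05 over all 23999 probe sets. By the same rule 9.99% of the 6765 genes were called, with 4.55% of the 6765 lower and 5.44% of the 6765 higher in ND. The median difference (ND minus control, log2 scale) was -0.45 over the 8 genes and -0.02 over all genes. The 8 genes were chosen with earlier results of these data known, so their count and median are no test of clock genes as a class. In whole tissue, fewer cells of a type and less RNA per cell cannot be told apart.

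Of the repressors, PER1 is an early gene of the negative limb of the loop. Its log2 signal ran from 6.99 through a median of 7.97 to 9.28 in ND animals, and from 9.94 through 10.61 to 10.92 in controls. All 10 ND animals lay below the lowest control. The groups did not overlap, which was so for 0.591% of the 6765 genes in either direction and for 0.325% with ND lower. The difference was -2.56 ± 0.24 (SE, n = 10 per group), a 5.92-fold lower level in ND, with an adjusted p of 1.47e-06 (limma). The second PER1 probe set read under the array background of 2.79 on every array, between 2.14 and 2.27, so it held no measurement of the gene. Averaged with it, PER1 stood at -1.30.

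CRY2 is a flavin-binding partner of the PER proteins in the repressor complex. Its log2 signal ran from 5.36 through 6.07 to 7.30 in ND animals and from 6.56 through 6.81 to 7.13 in controls. Of the ND animals 6 lay below the lowest control, 3 lay inside the control range and ND_193 lay above the highest control. The difference was -0.64 ± 0.21 (SE), with a 95% interval of -1.09 to -0.19, and did not pass (limma adjusted p = 0.0766). It passed without ND_193 (-0.76, adjusted p = 0.0192) and with array medians made equal (-0.73, adjusted p = 0.0472). In other settings it was smaller and did not pass. It stood at -0.30 with a term for animal number (limma adjusted p = 0.734). Without ND_47 and ND_92 it was -0.44 (limma adjusted p = 0.209). What set CRY2 apart was the spread between ND animals: the SD was 0.67 in ND and 0.19 in controls, a ratio of 3.57, and 4.15% of all genes had a ratio that large.

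BHLHE40 (DEC1) is a repressor that binds E-boxes and responds to many stimuli. Its brighter probe set ran from 5.10 through 6.22 to 7.41 in ND animals and from 5.23 through 5.90 to 7.06 in controls, with wide overlap. The difference of 0.20 ± 0.30 (SE) had a 95% interval of -0.43 to 0.82 (limma adjusted p = 0.650). Its other probe set read under background on every array.

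**Figure D1:**
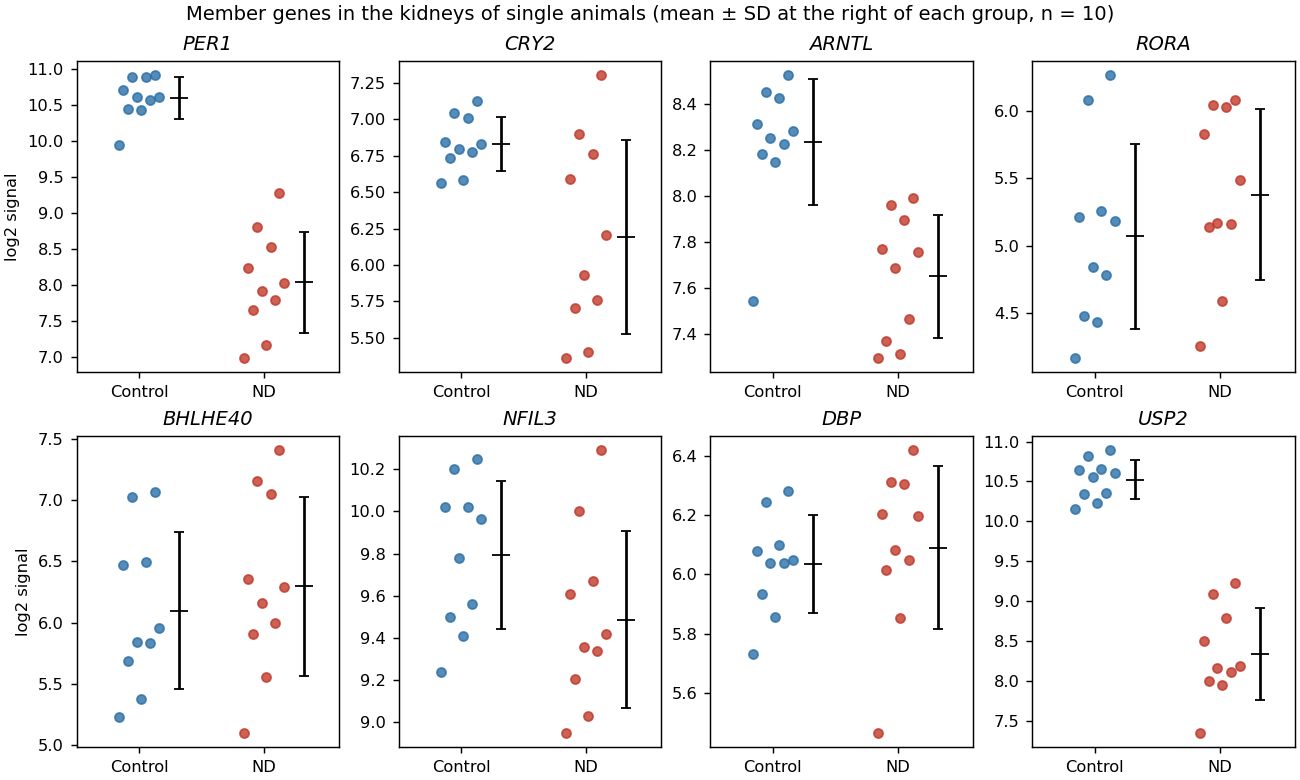
Log2 signal (vertical axis, a separate scale in each panel) of the 8 genes by their brightest probe set, with 1 point per animal; black marks are the mean ± SD of 10 animals. PER1 and USP2 show no overlap between ND and control animals, ARNTL overlaps only through Control_199 at 7.54, and CRY2 spreads from 5.36 to 7.30 in ND against 6.56 to 7.13 in controls.

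Among the activators, ARNTL encodes the partner of CLOCK. Its log2 signal ran from 7.30 through 7.72 to 7.99 in ND animals and from 7.54 through 8.26 to 8.52 in controls. The overlap rested on Control_199, the lowest control at 7.54; the next lowest control read 8.14, above all 10 ND animals. The difference was -0.58 ± 0.12 (SE), a 1.5-fold lower level, with an adjusted p of 0.00524 (limma). The spread was alike in both groups, with an SD of 0.27 in each.

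RORA is the nuclear receptor that activates ARNTL. It read between 4.26 and 6.08 in ND animals, with a median of 5.33, and between 4.17 and 6.26 in controls, with a median of 5.01. The groups overlapped, and every ND animal lay inside the control range. The difference of 0.31 ± 0.29 (SE) had a 95% interval of -0.29 to 0.91 (limma adjusted p = 0.449).

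Of the D-box factors, NFIL3 (E4BP4) ran from 8.95 through 9.39 to 10.29 in ND animals and from 9.24 through 9.87 to 10.25 in controls. Its difference was -0.31 ± 0.17 (SE; 95% interval -0.66 to 0.04; limma adjusted p = 0.216). DBP ran from 5.47 through 6.14 to 6.42 in ND animals and from 5.73 through 6.04 to 6.28 in controls, and its difference was 0.05 ± 0.10 (SE; limma adjusted p = 0.710). The interval for DBP, -0.15 to 0.26, leaves out a change of the size seen for PER1. The sign of the DBP difference turned to -0.03 with array medians made equal and to -0.01 with quantile normalization.

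USP2 is a ubiquitin protease that is rhythmic in many tissues, kidney among them, and acts on clock proteins. Its log2 signal ran from 7.35 through 8.17 to 9.22 in ND animals and from 10.16 through 10.58 to 10.89 in controls. As for PER1, every ND animal lay below every control. The difference was -2.19 ± 0.19 (SE), a 4.55-fold lower level, with an adjusted p of 8.45e-07 (limma). PER1 and USP2 also spread more widely in ND than in controls, with SD ratios of 2.41 and 2.33, against a median ratio of 1.19 over all genes. Ratios that large were seen for 10.1% and 11.3% of genes.

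Animal numbers were unequal between the groups: 7 of 10 ND animals and 1 of 10 controls were numbered up to 100. With a term for that split, PER1 (-2.21, adjusted p = 0.000241) and USP2 (-1.91, adjusted p = 0.000145) kept their calls and ARNTL (-0.59, adjusted p = 0.0544) lost its call, while 2.78% of genes were called and 1.91% called lower (limma). In a fit of the 3 ND animals numbered above 100 and the 5 controls with the highest numbers, 0 of the 8 genes passed, 3 had an unadjusted p under 0.05 in limma, and 0.325% of genes were called (0.177% lower). PER1 then stood at -2.01 (adjusted p = 0.112), USP2 at -1.85 (adjusted p = 0.0651), ARNTL at -0.33 (adjusted p = 0.534) and CRY2 at -0.20 (adjusted p = 0.738). The third gene with an unadjusted p under 0.05 there, beside PER1 and USP2, was RORA, at 1.05 ± 0.33 (SE; limma adjusted p = 0.253), against 0.31 over all animals. Its 3 ND animals read between 5.14 and 6.08 and its 5 controls between 4.17 and 5.21, a narrow overlap. PER1 did not overlap there: the 3 ND animals read between 7.65 and 9.28 and the 5 controls between 9.94 and 10.92. For USP2 the same ND animals read at most 9.22 and the same controls at least 10.23. Groups of 3 and 5 animals separate by chance far more readily than groups of 10. The share of all genes that did not overlap in this subset is not given here. Without ND_47 and ND_92, the 2 ND animals with the lowest PER1, PER1 was at -2.33, USP2 at -2.01 and ARNTL at -0.58, and all 3 passed, with 8.0% of genes called and 3.75% called lower (limma).

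**Figure D2:**
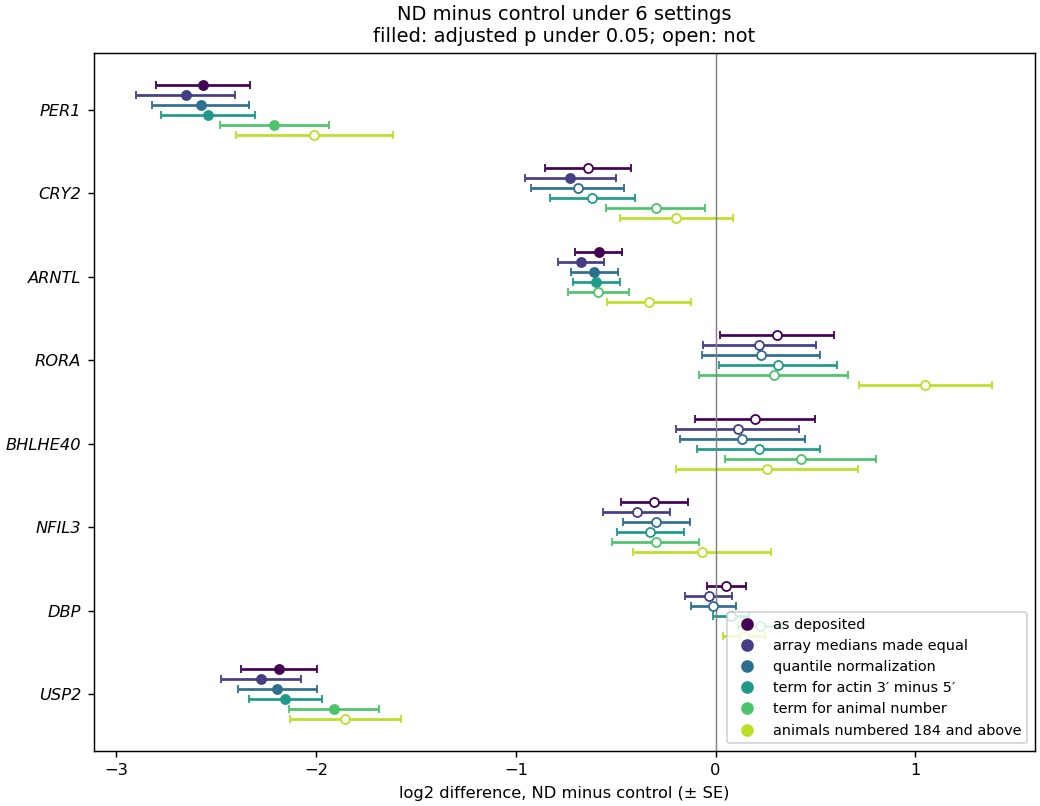
Log2 difference, ND minus control, of the 8 genes under 6 settings (horizontal axis; bars are ± SE; filled points passed an adjusted p under 0.05 in limma, open points did not). PER1 and USP2 lie between -2.65 and -1.85 in all 6, ARNTL moves to -0.33 in the highest-numbered animals, and CRY2 ranges from -0.73 to -0.20.

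Array medians were 0.09 higher in ND than in controls (permutation p = 0.00652). Making the array medians equal shifted the typical probe set's difference from -0.03 to -0.12. CRY2 then joined PER1, USP2 and ARNTL, so that 4 of the 8 genes were called lower, beside 30.1% of all genes called and 24.1% called lower. The 3′ minus 5′ difference of the actin control probe sets, a measure of RNA integrity, was 4.01 ± 0.74 (SD) in ND and 4.14 ± 0.60 (SD) in controls (permutation p = 0.682, n = 10 per group). On the log2 scale it ran from 2.60 to 5.16 in ND and from 3.46 to 5.30 in controls. The 3′ end thus read well above the 5′ end on every array, and alike group means do not show that the RNA was intact. With the actin difference as a term, PER1 was at -2.54, USP2 at -2.15 and ARNTL at -0.60, and all 3 passed, with 11.4% of genes called and 5.19% called lower (limma). The same difference for the GAPDH control probe sets was 1.67 ± 0.17 (SD) in ND and 1.85 ± 0.27 (SD) in controls (permutation p = 0.0878, n = 10 per group). With that as a term PER1 was at -2.49 (adjusted p = 1.76e-05), USP2 at -2.09 (adjusted p = 8.82e-06) and ARNTL at -0.64 (adjusted p = 0.00661), with 8.5% of genes called and 4.05% called lower (limma).

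The rest of the core loop could be followed only in part. Of 21 other clock genes listed, CSNK1D had a named probe set. The other 20, among them CLOCK, PER2, PER3, CRY1, NR1D1, NR1D2, TEF and HLF, are not analysed here. CSNK1D, a kinase that marks PER proteins for degradation, differed by 0.003 ± 0.10 (SE; limma adjusted p = 0.987). In a further list of 36 regulators of clock proteins, 23 had a named probe set and 2 of these read under background on all arrays. KDM1A (a histone demethylase that serves the CLOCK and ARNTL pair; 0.42 ± 0.11, SE, adjusted p = 0.0245) and PRKAB2 (a subunit of the energy sensor AMPK, which phosphorylates CRY proteins; 0.78 ± 0.21, SE, adjusted p = 0.0271) rose. The other 21 did not pass, and the list's median was 0.07. These 2 of 23 are close to the 9.99% called over all genes, so the count says nothing particular about the list. PRKAB2 lost its call without ND_86 (adjusted p = 0.0521), without Control_155 (adjusted p = 0.0506) and with a term for GAPDH 3′ minus 5′ (adjusted p = 0.0599), and both genes lost theirs with the term for animal number (KDM1A 0.23, adjusted p = 0.434; PRKAB2 0.67, adjusted p = 0.234).

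Of 11 listed genes described as clock outputs, 9 had a named probe set, of which 2 fell, 1 rose and 6 did not pass, with a list median of -0.17. Over all genes 9.99% were called, 4.55% lower and 5.44% higher in ND. The list was chosen with earlier results of these data known, so its count is no test of clock outputs. The falls were those of TSC22D3 (GILZ; -2.26, adjusted p = 5.71e-09) and of SGK1 (a kinase that raises sodium channel activity; -1.46, adjusted p = 0.00174), both of them also induced by glucocorticoids. WEE1, a kinase that delays entry into mitosis and carries E-boxes in its promoter, rose by 1.06 ± 0.23 (SE), a 2.09-fold rise, with an adjusted p of 0.00856 (limma). With the term for animal number, WEE1 (1.05, adjusted p = 0.0781) and SGK1 (-1.17, adjusted p = 0.0570) lost their calls. The transport genes SCNN1A, SLC9A3 and AVPR2 read under background on all 20 arrays and gave no level.

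For PER1, USP2, CRY2, DBP and RORA, much the same animals stood at the ends of the ND range. ND_47 had the lowest signal of the 10 for PER1, USP2, CRY2 and DBP and the second lowest for RORA. ND_92 had the lowest for RORA and the second lowest for the other 4. At the other end ND_193 had the highest PER1, USP2, CRY2 and RORA, and ND_198 the highest DBP. The order was different for ARNTL, where ND_92 was the highest of the ND animals and ND_47 the lowest. It also differed at the low end for NFIL3 and BHLHE40. Counted from the lowest, ND_47 ranked 9 for NFIL3 and 5 for BHLHE40, and ND_92 ranked 3 and 7. ND_193 ranked 8 and 9 for these genes, and ND_198 ranked 10 and 8.

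Covariation was measured over the 10 animals of each group, for all 28 pairs in both groups, as a family of 56 correlations with adjusted p-values over all of them (two-sided permutation tests, 100000 resamples). In the ND group 6 pairs passed, and all 6 were positive. The share of all gene pairs that would pass in these 10 ND animals is not given here, so the count is not particular to these genes. In controls 0 pairs passed, and 1 had an unadjusted permutation p under 0.05. The median r was 0.34 in ND and 0.07 in controls. The difference between the groups' correlations was not tested.

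The closest pair in ND was PER1 with RORA, at r = 0.92 (permutation p = 0.00023, adjusted p = 0.0129) and Spearman's rho = 0.95 (permutation p = 9e-05). Without the 2 animals farthest from the PER1 median, ND_47 and ND_193, r was 0.93 (exact permutation adjusted p = 0.0319, n = 8). In controls r for this pair was -0.10 and rho -0.15 (permutation adjusted p = 0.928). So RORA, whose mean did not pass between the groups, followed PER1 from animal to animal within ND.

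PER1 also varied with CRY2 at r = 0.85 and rho = 0.78 (permutation p = 0.00172 and 0.0106). With DBP it gave r = 0.84 and rho = 0.81 (permutation p = 0.00163 and 0.00756). With USP2 it gave r = 0.84 and rho = 0.85 (permutation p = 0.00284 and 0.00269). CRY2 with DBP gave r = 0.80 and rho = 0.92 (permutation p = 0.0027 and 0.00053), and DBP with RORA r = 0.83 and rho = 0.84 (permutation p = 0.00202 and 0.00347). The adjusted p of r was 0.0265 for each of these 5 pairs. In controls the same pairs gave r = 0.52, -0.02, 0.54, 0.34 and -0.57. DBP, which had nearly equal means in both groups, was thus part of 3 of the 6 pairs.

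Of the 5 relations other than PER1 with RORA, the pairs of PER1 with CRY2 and with USP2 weakened without the ends of the range, and the other 3 kept an r of about the same size. Without the 2 animals farthest from the median of the first gene, r fell to 0.70 for PER1 with CRY2 and to 0.63 for PER1 with USP2, and stood at 0.84 for PER1 with DBP, 0.81 for CRY2 with DBP and 0.79 for DBP with RORA. With 8 animals none of these 5 passed (exact permutation adjusted p between 0.141 and 0.407, n = 8). Without ND_47 and ND_92, 0 of 28 ND pairs passed and 5 had an unadjusted exact permutation p under 0.05, with r between 0.70 and 0.86 for the 6 pairs. Within the 7 ND animals numbered up to 100, r was between 0.71 and 0.92 for the 6 pairs, 0 pairs passed and 4 had an unadjusted exact permutation p under 0.05. The 3 ND animals above 100 were too few for a correlation.

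**Figure D3:**
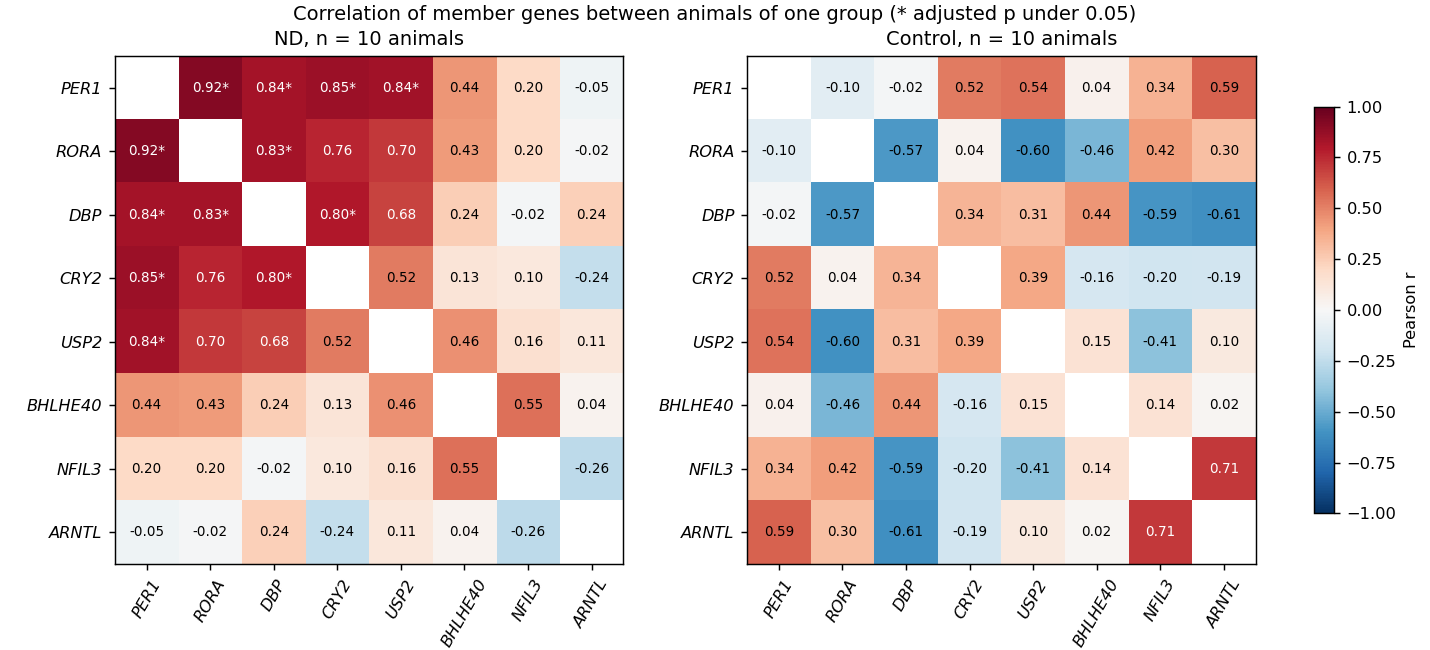
Pearson r between the 8 genes over the 10 ND animals (left) and over the 10 controls (right); red is positive, blue negative, and an asterisk marks an adjusted permutation p under 0.05. The 6 marked pairs lie among PER1, RORA, DBP, CRY2 and USP2 in ND, with r from 0.80 to 0.92, and no pair of controls is marked.

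ARNTL, NFIL3 and BHLHE40 took no part in the passing pairs. In ND the r of ARNTL with PER1 was -0.05, and with CRY2 -0.24. The largest r in controls was that of ARNTL with NFIL3, at 0.71 with rho = 0.68 (permutation p = 0.00842 and 0.0355; adjusted p of r 0.0674). It fell to 0.43 without Control_02 and Control_199 (exact permutation p = 0.292, n = 8). In controls PER1 with ARNTL gave r = 0.59 but rho = -0.04, and r = -0.32 without the 2 controls farthest from the PER1 median, so this relation rested on those animals, Control_190 and Control_199. Without the same 2 animals, PER1 with CRY2 in controls went the other way, from r = 0.52 and rho = 0.68 to r = 0.96 (exact permutation adjusted p = 0.0236, n = 8).

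**Figure D4:**
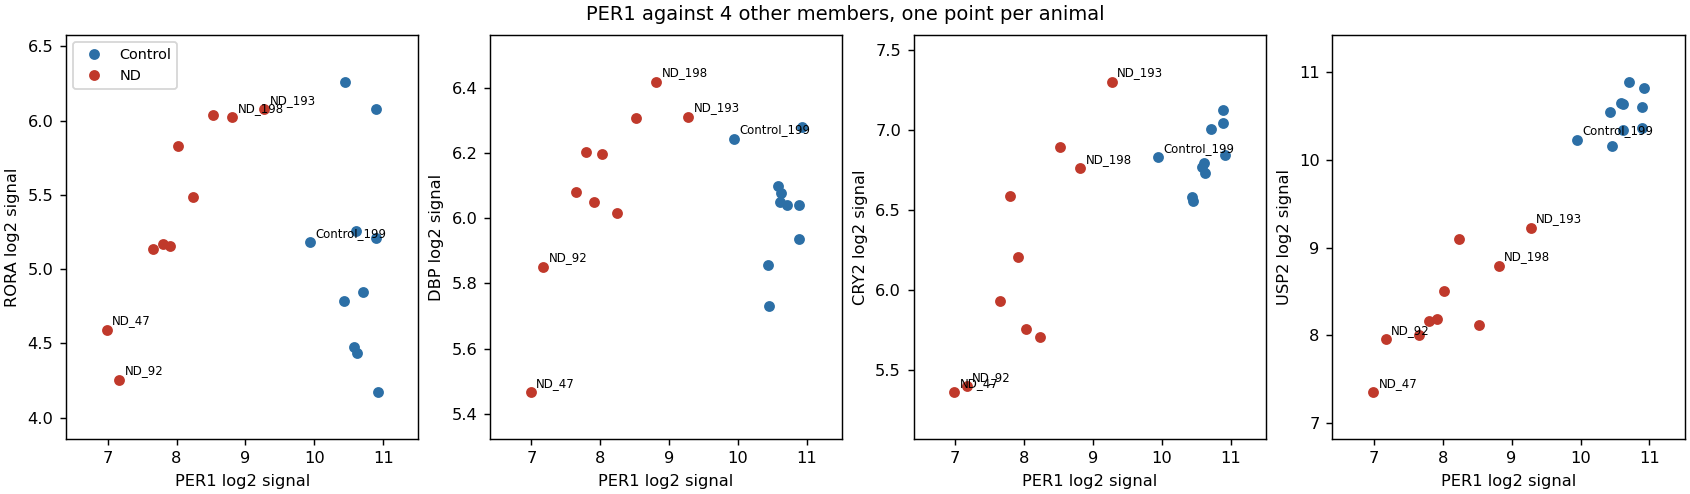
PER1 log2 signal (horizontal axes) against RORA, DBP, CRY2 and USP2 (vertical axes), with 1 point per animal, ND in red and controls in blue; the ends of the ND range and Control_199 are named. Along the ND points, r is 0.92, 0.84, 0.85 and 0.84, while the controls gather at PER1 signals between 9.94 and 10.92.

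Array medians moved with part of this pattern. Within ND the array median correlated with CRY2 at r = -0.79 and rho = -0.82, with PER1 at r = -0.72 and rho = -0.60, and with DBP at r = -0.67 and rho = -0.70 (permutation adjusted p = 0.157, 0.274 and 0.301 over a family of 224 relations of the 8 genes with quality measures and marker lists). Without the 2 animals farthest from each gene's median these became -0.80, -0.43 and -0.54. With array medians made equal, and with quantile normalization, each of the 6 ND pairs passed again. The array median ran against CRY2, PER1 and DBP, so making medians equal adds a shared part and tends to raise their r. The median r over the 28 ND pairs was 0.34 as deposited, 0.43 with equal medians and 0.40 with quantile normalization. Passing again therefore could not decide the part of the array median, which was not tested.

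Macrophage markers moved with the same genes. Of 4 listed markers, CD14, CD163 (the haemoglobin scavenger receptor) and MRC1 (the mannose receptor) had a named probe set, and each was read above background on all arrays. All 3 fell in ND, CD163 by the most (-2.05, adjusted p = 0.00194), with MRC1 at -0.87 (adjusted p = 0.0366) and CD14 at -0.54 (adjusted p = 0.0449, limma). The log2 of their summed linear signals ran from 6.38 to 8.66 in ND animals and from 7.98 to 9.63 in controls. Within ND, the mean log2 signal of the 3 markers correlated with PER1 at r = -0.95 and rho = -0.89 (permutation p = 6e-05, adjusted p = 0.0134), and at r = -0.91 without ND_47 and ND_193. CRY2 (r = -0.90, rho = -0.85) and DBP (r = -0.86, rho = -0.83) passed as well (permutation adjusted p = 0.0388 for both; r = -0.84 and -0.73 without 2 animals each), and RORA (r = -0.84, adjusted p = 0.120) and USP2 (r = -0.78, adjusted p = 0.170) did not. By rho none of these passed, with an adjusted permutation p of 0.179 for PER1, CRY2 and DBP. In controls PER1 with these markers gave r = 0.19 (permutation adjusted p = 0.828). Among ND animals the ones with more macrophage marker signal thus had less PER1, while between the groups both were lower in ND. The part of the markers in the PER1 pattern was not tested.

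**Figure D5:**
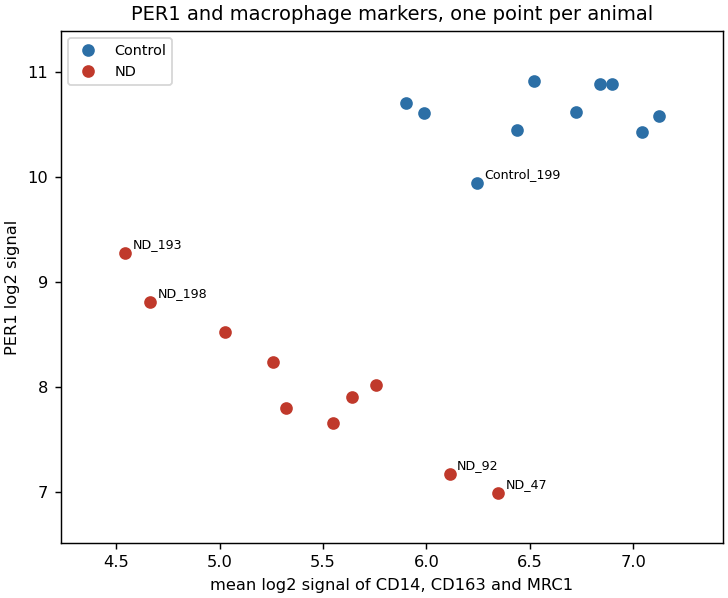
Mean log2 signal of CD14, CD163 and MRC1 (horizontal axis) against PER1 log2 signal (vertical axis), with 1 point per animal. ND animals run from ND_193 (4.54 and 9.28) down to ND_47 (6.35 and 6.99), and controls lie apart, between 5.90 and 7.12 on the horizontal axis with PER1 from 9.94 to 10.92.

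For the other cell types, LRP2, a defining marker of the proximal tubule, read between 12.64 and 14.09 in ND and between 12.97 and 13.61 in controls. Within ND it moved in the same direction as the 5 covarying genes, though none of these relations passed over the 224: r was 0.81 with PER1 (rho = 0.87), 0.84 with DBP (rho = 0.72), 0.74 with USP2 and with RORA (rho = 0.75 for both) and 0.68 with CRY2 (rho = 0.72), with permutation adjusted p of r between 0.120 and 0.301. Without the 2 animals farthest from each gene's median r was 0.81 for PER1, 0.77 for USP2, 0.70 for RORA and 0.66 for CRY2, and fell to 0.29 for DBP. In controls LRP2 gave r = -0.39 with PER1 and -0.62 with USP2 (permutation adjusted p = 0.660 and 0.400). It was the 1 named probe set of 6 listed proximal tubule markers, and none of the 6 listed for the distal nephron had a named probe set. Adrenal markers (CYP11A1, CYP17A1 and PNMT, of 5 listed) read under background on all arrays, as did the B cell marker CD79B, the neutrophil markers S100A8 and S100A12, the endothelial marker KDR and the fat marker ADIPOQ. S100A9, also a neutrophil marker, read above background on 17 of 20 arrays. Within ND the mean of the 3 neutrophil markers gave r = -0.82 with USP2 (rho = -0.70), -0.71 with RORA and -0.70 with PER1. With DBP it gave -0.53 and with CRY2 -0.26. None of these passed (permutation adjusted p between 0.121 and 0.742). In controls r was -0.28 with USP2 and -0.51 with PER1. PDGFRB (0.65) and the T cell gene CD3E (0.91) rose and the fat gene FABP4 (-0.89) fell (limma adjusted p = 0.0361, 0.0194 and 0.0160); CD3E read above background on 5 of 20 arrays. The part of these in the clock gene differences was not tested.

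PER1 was also set beside FKBP5, TSC22D3 and KLF9, standard glucocorticoid-induced genes, all of which fell (-3.32, -2.26 and -2.51). Of 48 correlations of the 8 genes with these 3 within the groups, 0 passed after adjustment, and 4 in ND and 3 in controls had an unadjusted permutation p under 0.05. PER1 with TSC22D3 gave r = 0.80 and rho = 0.81 in controls (permutation p = 0.00474 and 0.0072, adjusted p of r 0.0758; r = 0.69 without Control_190 and Control_199). In ND the same pair gave r = 0.05 and rho = 0.21 (permutation adjusted p of r 0.956, and r = 0.74 without ND_47 and ND_193). PER1 with FKBP5 gave r = 0.59 in ND and 0.69 in controls, and with KLF9 0.66 and 0.61 (permutation adjusted p between 0.239 and 0.310). For KLF9 in controls rho was 0.10. DBP with KLF9 gave r = 0.87 and rho = 0.76 in ND (permutation p = 0.00217 and 0.0143, adjusted p of r 0.0758; r = 0.71 without ND_47 and ND_92), and BHLHE40 with FKBP5 r = 0.82 and rho = 0.72 (permutation p = 0.0042 and 0.023, adjusted p of r 0.0758; r = 0.66 without ND_22 and ND_31).

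The genes whose deviations from the group means over the 20 arrays were most like those of each called member were ranked among 5641 named genes above background, as a description. For PER1 they were KLF15 (a Kruppel-like transcription factor; r = 0.82), CRY2 (r = 0.81) and SDHA (a subunit of succinate dehydrogenase; r = 0.81), and USP2 ranked 5. KLF15 was close to PER1 in both groups, with r = 0.85 within ND and 0.87 within controls, whereas SDHA gave 0.93 within ND and 0.28 within controls. For USP2 they were HPN (hepsin, a membrane serine protease; r = 0.83), ECH1 (a fatty acid oxidation enzyme; r = 0.81) and PC (pyruvate carboxylase; r = 0.81), and PER1 ranked 7. For ARNTL they were OXCT1 (a ketone body enzyme; r = 0.72), CLK1 (a splicing kinase; r = 0.72) and RASGEF1B (r = 0.68), and the nearest of the other clock genes was NFIL3 at rank 1477. Further down for PER1, DBP ranked 102, RORA 324, BHLHE40 1095, NFIL3 1470 and ARNTL 1899. For USP2 the further ranks were DBP 227, CRY2 475, BHLHE40 1032, RORA 1397, ARNTL 2112 and NFIL3 2546. Many genes outside the group were thus closer to PER1 or USP2 than most members were. Arrays and animals are shared by all these values.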

How the data were processed

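The values that the authors deposited are log2 signals, 1 for each probe set on each array; this scale was read from the range of 0.882 to 16.2, and background correction, summarization and scaling are not given in the sources used here. Per the labels' protocols, 250 ng of total RNA were made into biotin-labelled cRNA. Columns were matched to samples by accession and groups taken from titles. Of 24123 probe sets, 124 controls were left out of tests. Gene names are those of the platform annotation; 10069 probe sets had 1 symbol, and the brightest probe set stood for a gene. Background, 2.79, was the highest value of 23 tag and tryptophan control probe sets. Groups were compared with limma 3.58.1 in R 4.3.3 (lmFit, eBayes, no covariate), Benjamini-Hochberg over 23999 probe sets, a step checked on simulated data. Correlations used permutation in Python 3.11.15 and numpy 2.4.6, by exact enumeration under 10 animals. The replicates were separate animals; no arrays were identical (highest r between arrays 0.994), and their number limits the precision. The members and lists were chosen with earlier results of these data known, and the list of clock protein regulators was written after it was seen that 1 of 21 other clock genes was named. Named were the 8 genes, listed genes that passed, set clock genes, 3 glucocorticoid-induced genes and the 3 genes most like each called member; markers were named after their values were seen. No promoter or protein sequences were used here. The alternatives were 2 other scalings, leaving out dim probe sets, array weights, another variance model, animal number, actin and GAPDH 3′ minus 5′ terms, subsets of animals, the threshold, gene means and leaving out each animal.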

Additional observations from a re-analysis of the deposited data

Results flagged for a closer look

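Control_199 stood apart from the other 9 controls in 2 of the 16 sets of 10 values examined, with chance alone giving about 1 in 20 such sets. Its PER1 log2 signal was 9.94, where the next lowest control read 10.43, a gap of 0.496 of the whole range. Its ARNTL signal was 7.54, where the next lowest control read 8.14, a gap of 0.615 of the range. The same animal had the lowest NFIL3 and the second lowest USP2 of the controls. Its actin 3′ minus 5′ difference, 5.30, was the highest of the 20 arrays. The GAPDH difference of Control_199 was 2.15, in a control range of 1.46 to 2.20. Within controls ARNTL and the actin difference gave r = -0.81 and rho = -0.62 (permutation adjusted p of r 0.121). Without Control_02 and Control_199 that r was -0.45. The part of RNA integrity in the Control_199 values was not tested.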

How the results depend on the processing

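PER1 and USP2 kept their direction under every alternative and missed the threshold in 1, the fit of the 3 ND animals numbered above 100 and the 5 controls with the highest numbers (-2.01 and -1.85), where ARNTL stood at -0.33. There 0 of the 8 genes, 0 of their probe sets, 1 clock output gene, 0 clock protein regulators and 57 of all probe sets passed, against 3, 3, 3, 2 and 1712 as reported. With a term for animal number ARNTL was at -0.59 and not called, and 1 clock output gene, 0 regulators and 505 probe sets passed. With array medians made equal, 5 member probe sets (the PER1 probe set at background among them), 5 clock output genes, 4 regulators and 8765 probe sets passed, and CRY2 was called at -0.73. CRY2 was also called with array weights (-0.67) and in its own permutation test, with no adjustment over genes (-0.64). With a term for GAPDH 3′ minus 5′, 1 regulator passed. At an adjusted p under 0.01, 0 regulators and 619 probe sets passed. Leaving out 1 animal at a time gave 1295 to 2303 probe sets, 3 to 4 member genes, 3 to 4 member probe sets, 3 to 3 clock output genes, 1 to 4 regulators, PER1 from -2.70 to -2.45, USP2 from -2.28 to -2.07, ARNTL from -0.66 to -0.55 and CRY2 from -0.76 to -0.55. Of the ND pairs 6 passed as reported, 0 without ND_47 and ND_92, 0 within animals numbered up to 100, 1 with the 2 farthest animals left out and 4 by rho; of the control pairs 1 passed with 2 animals left out. Causes were not tested. The number ranges of the correlations, the regulator list and the actin and GAPDH terms were chosen after seeing the data. No paired analysis was possible because the groups share no animal numbers. The alternative for linear intensities and the promoter motifs were not run. Signals under background limit SCNN1A, SLC9A3 and AVPR2 to no level.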
